A study of Homo sapiens with 8 samples.

Results

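The AURKB locus was taken as the 200 kb of chromosome 17 from 8000001 to 8200000 (hg19), and its members were all peaks of HA-tagged LSF in that window. There were 27 such peaks of 2412 in the series: 16 of 1983 peaks called with mono-nucleosome DNA and 11 of 429 called with di-nucleosome DNA. The window was set by position around the gene, but the locus was chosen with its peaks known. AURKB (NCBI gene 9212) was placed at 8108056 to 8113918 on the minus strand, an approximate hg19 position that was not read from an annotation here, so its start site lies near 8113918 and positions above that number are upstream of the gene.

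The peaks came from a stable HEK293T line, an established human embryonic kidney line, that carries HA-tagged LSF under an inducible promoter. In the induced cells 5 μM of the ligand RSL1 was given for 24 h, and chromatin cut with micrococcal nuclease was precipitated with an antibody to the HA tag. DNA of mono- and of di-nucleosome size was sequenced separately, with input chromatin as the reference, and each of these 4 libraries was the only one of its kind. The 4 libraries of uninduced cells, which carry the same transgene and for which DMSO is named in place of RSL1, were not analysed here, so whether the peaks below also occur without induction was not tested. The antibody reads the tagged, induced protein and not the LSF that the cells make themselves. No value has a replicate, and no test between conditions could be made. Without read counts in the peak lists, sequencing depth is unknown.

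LSF, encoded by TFCP2, is a transcription factor of the CP2 family that binds DNA at pairs of short half-sites. AURKB encodes Aurora kinase B, the enzyme of the chromosomal passenger complex, which corrects the attachment of chromosomes to the spindle and acts in cytokinesis. INCENP, BIRC5 (survivin) and CDCA8 (borealin) are the other subunits of that complex. The locus was examined because binding of LSF near AURKB bears on whether the gene could be a direct target of LSF.

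No peak of either list lay on the AURKB start site. The peak closest to it was a di-nucleosome peak from 8114543 to 8117945, whose near edge was 625 bp upstream of the start. Its score of 161 ranked 17th of 428 di-nucleosome peaks. The score is the value that the authors' peak caller gave, with a lowest value of 50.0 in the lists, and is used here only to order peaks within a list. No mono-nucleosome peak overlapped this di-nucleosome peak. At the other end of the gene a mono-nucleosome peak from 8107520 to 8108304 covered the last 249 bp of AURKB. It scored 68.5, rank 323 of 1983, and no di-nucleosome peak overlapped it. Between these peaks 6.24 kb, which hold the rest of the gene and its start site, had no peak in either list. The peaks that lay closest to AURKB were thus each present in a single size class. A place without a peak is not shown to lack LSF. By quantitative PCR the authors report LSF binding at the AURKB promoter and further upstream, which was not examined here.

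**Figure D1:**
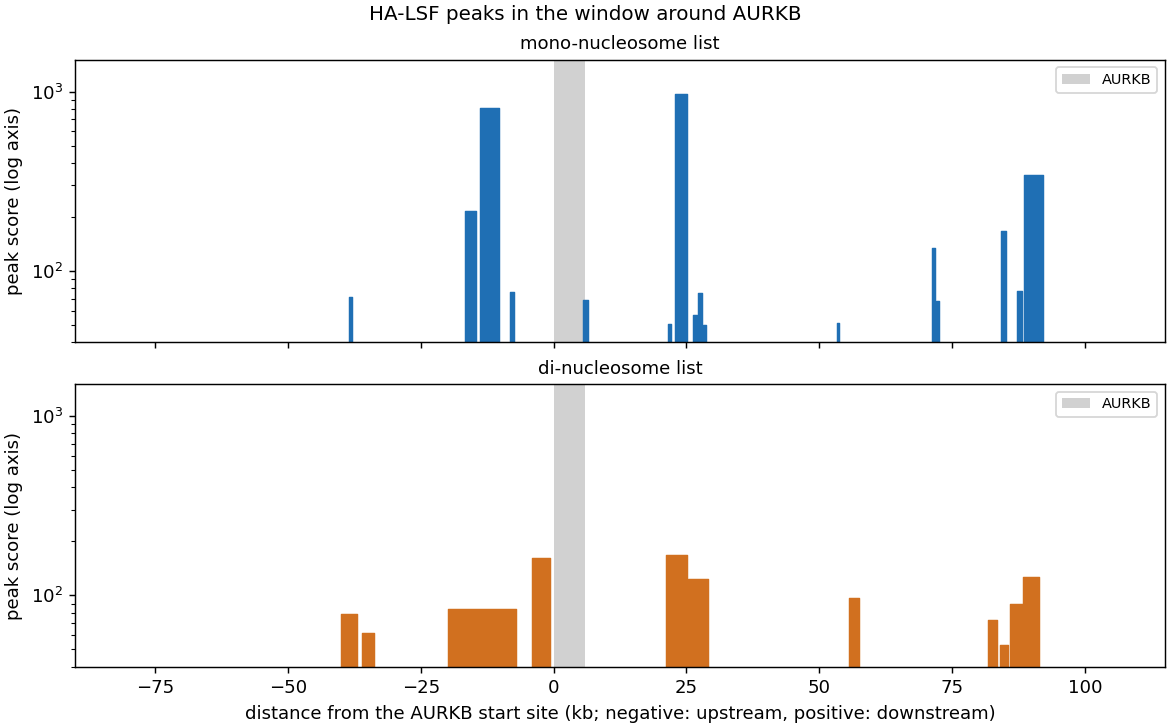
Peaks of the mono-nucleosome list (upper panel) and of the di-nucleosome list (lower panel) by distance from the AURKB start site in kb, with upstream to the left; each bar spans a peak and its height is the score on a log axis. The grey band is AURKB. The tallest mono-nucleosome bars, with scores of 812 and 967, stand 10.2 kb upstream and 22.9 kb downstream of the start, and the di-nucleosome bar next to the band has no counterpart above it.

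Upstream of AURKB, the mono-nucleosome list had 4 peaks. The peak from 8121332 to 8122086, 7.41 kb from the start site, scored 76.6. The next, from 8124112 to 8127814 and 10.2 kb away, scored 812 and ranked 3rd in the list. A peak from 8128546 to 8130658, 14.6 kb away, scored 217, rank 30. The fourth, from 8151813 to 8152508, was 37.9 kb away and scored 72.1. The high mono-nucleosome scores on this side were therefore found between 10 and 20 kb from the start site and not next to it.
In the di-nucleosome list the upstream side also had 4 peaks. Next after the peak at 625 bp came a peak of 12844 bp from 8120903 to 8133746, the second widest of the 428 in the list, with a score of 84.2. This peak contained the mono-nucleosome peaks of scores 76.6, 812 and 217 entirely. The remaining peaks, from 8147681 to 8149943 and from 8150987 to 8153900, scored 61.5 and 79.1, and the second of them contained the mono-nucleosome peak of score 72.1. On the upstream side each mono-nucleosome peak was thus inside a di-nucleosome peak.

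Downstream of AURKB, the nearest group of peaks spanned 8084944 to 8092760 and began 15.3 kb from the end of the gene. It held the top-ranked mono-nucleosome peak of the whole genome, with a score of 967, from 8088757 to 8091040, which was 17016 bp from the gene end and 22.9 kb from the start site. The other 4 mono-nucleosome peaks of the group scored 50.2, 75.5, 56.7 and 51.0. A di-nucleosome peak from 8088869 to 8092760 with a score of 168 overlapped the peak of score 967 over 2172 bp and contained the peak of score 51.0. A di-nucleosome peak from 8084944 to 8088610 with a score of 123 contained the other 3.
Further downstream the window held 6 mono-nucleosome and 5 di-nucleosome peaks between 47.4 and 82.6 kb from the gene end. The highest of these were a mono-nucleosome peak from 8021827 to 8025460 with a score of 342, rank 16, and the di-nucleosome peak from 8022597 to 8025510 that overlapped it over 2864 bp, with a score of 126. The mono-nucleosome scores of 166, 135, 77.5, 68.3 and 51.2 and the di-nucleosome scores of 97.0, 89.0, 73.3 and 52.8 belonged to the others. Of the 27 peaks, 18 were downstream of AURKB, 8 upstream and 1 on its end. The window is not centred on the gene and reaches further downstream than upstream. Within 20 kb of the gene the sides were nearly even, with 3 mono-nucleosome peaks upstream and 2 downstream, and 2 di-nucleosome peaks on each.

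Counted from the nearest edge of a peak to the gene, 1 mono-nucleosome and 1 di-nucleosome peak lay within 5 kb of AURKB. Within 20 kb there were 6 mono-nucleosome peaks, of which 3 were upstream, 2 downstream and 1 on the gene end, and 4 di-nucleosome peaks, of which 2 were upstream and 2 downstream. Within 50 kb there were 11 and 7. When distance was measured to the start site alone, the mono-nucleosome list had 0 peaks within 5 kb and 4 within 20 kb, and the di-nucleosome list had 1 and 2. Apart from the di-nucleosome peak at 625 bp, no peak thus lay within 5 kb of the start.
The window was bounded by long stretches without peaks. The nearest peaks outside it were, for the mono-nucleosome list, 301 kb below its first peak with a score of 53.2 and 682 kb above its last with a score of 69.9. For the di-nucleosome list they were 6664 kb below with a score of 50.9 and 1169 kb above with a score of 64.2. The peaks just inside the window scored 342 and 72.1 in the mono-nucleosome list and 126 and 79.1 in the di-nucleosome list. Moving either limit of the window outward by 100 kb would have added no peak.

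Windows with as many peaks were rare elsewhere. Chromosomes 1 to 22 and X were divided into 200 kb windows, and the AURKB window was compared with the 15168 others. At least 1 peak of either list was present in 12.4% of these. At least 16 mono-nucleosome peaks were present in 2 of them, or 0.0132%, at least 11 di-nucleosome peaks in 1, or 0.00659%, and at least 27 peaks of both lists together in 2, or 0.0132%. The windows with more peaks were both on chromosome 6, from 27400001 to 27600000 with 31 peaks and from 28600001 to 28800000 with 30. Their highest mono-nucleosome scores, 218 and 313, were below the 967 of the AURKB window, whereas their highest di-nucleosome scores, 206 and 331, were above its 168. The AURKB window held its whole group of peaks, whereas window edges can divide other groups. On chromosome 1 the adjoining windows from 161200001 to 161400000 and from 161400001 to 161600000 held 16 and 13 peaks. The place of the AURKB window in this order thus depends on where the edges fall. With the windows shifted by 100 kb the peaks of the locus fell into neighbouring windows of 18 and 9, and 6 windows elsewhere, or 0.0396%, held at least 18. AURKB itself lies in the window of 9, and the share above refers to the downstream window of 18, which does not hold the gene. How many shifted windows held at least 9 was not counted. In the unshifted tiling, of the 14 windows with at least 10 peaks, 8 were on chromosome 6, 2 on chromosome 1 and 1 each on chromosomes 5, 14, 16 and 17.
Windows of the size of AURKB with flanks were also counted. The AURKB window was centred on the gene, whereas the others were laid end to end without regard to genes. The shares below therefore do not compare AURKB with other genes. With 5 kb on each side, at least the 2 peaks seen around AURKB were found in 0.0523% of 191385 windows outside the locus. With 20 kb the share with at least 10 peaks was 0.0136% of 66188, and with 50 kb the share with at least 18 was 0.0105% of 28666. These shares describe the lists. They are not p-values, because peaks were grouped along the genome and the locus was chosen with its peaks known.

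**Figure D2:**
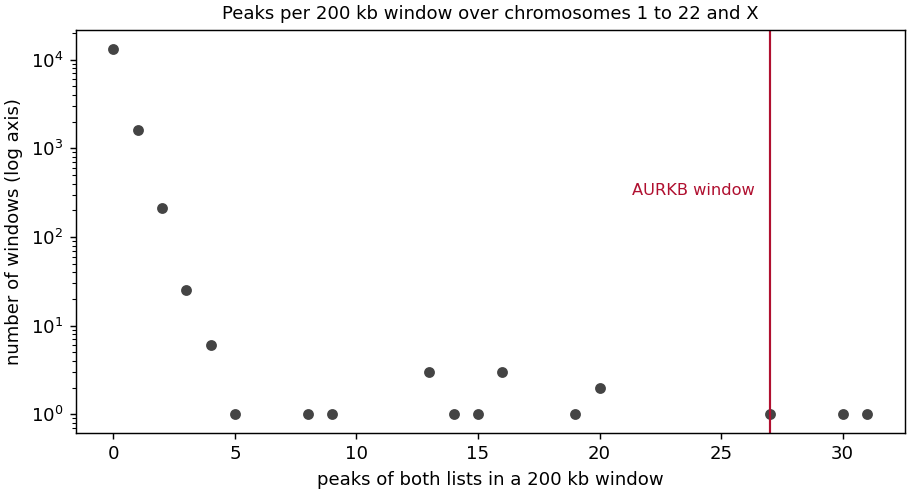
Number of 200 kb windows (vertical, log axis) that held a given number of peaks of both lists together (horizontal). Each point is a peak count that occurred; 13290 windows held 0 peaks, and the AURKB window, marked by the line, held 27, with windows of 30 and 31 to its right.

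In coverage, the mono-nucleosome peaks took up 20036 bp or 10.0% of the window, and the di-nucleosome peaks 39378 bp or 19.7%. Over the chromosomes as a whole the lists covered 0.0429% and 0.0238%. The peaks of the locus were wide, with median widths of 757 bp and 2914 bp against 557 bp and 1282 bp for the peaks outside it.
The scores in the window reached over the whole range of the mono-nucleosome list, from 50.2 to 967 with a median of 76.0, against a median of 55.8 for the 1967 other peaks. In the di-nucleosome list they ran from 52.8 to 168 with a median of 89.0, against 56.4 for the 417 others. A score above 100 was reached by 6 of the 16 mono-nucleosome peaks, or 37.5%, beside 3.76% of the peaks outside the locus. In the di-nucleosome list it was reached by 4 of 11, or 36.4%, beside 8.87%. In the 14 windows with at least 10 peaks the highest mono-nucleosome score ranged from 109 to 967, and the highest di-nucleosome score from 61.3 to 548. Scores above 100 were thus not particular to this window. Not all members were high: mono-nucleosome peaks of the locus with scores of 51.2, 51.0 and 50.2 ranked 1683, 1753 and 1931 of 1983, close to the end of the list.

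**Figure D3:**
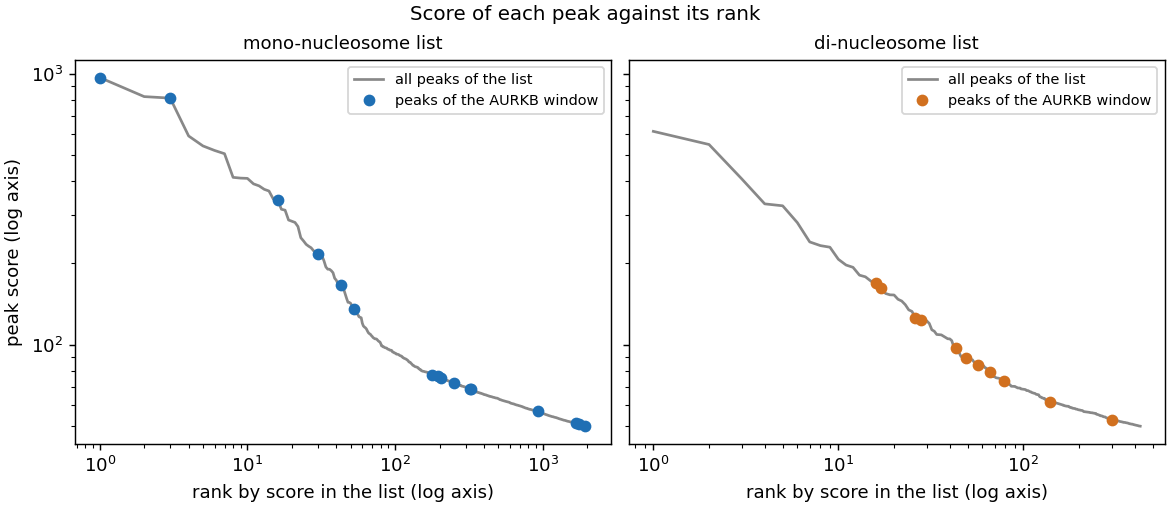
Score of each peak (log axis) against its rank in its list (log axis), for the mono-nucleosome list on the left and the di-nucleosome list on the right; the line is the whole list and the points are the peaks of the AURKB window. In the mono-nucleosome list the points begin at ranks 1 and 3, and in the di-nucleosome list at ranks 16 and 17.

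The lists overlapped more in the window than across all peaks outside it. At least 1 bp was shared with a di-nucleosome peak by 12 of the 16 mono-nucleosome peaks, or 75.0% (95% Wilson interval 50.5% to 89.8%), beside 4.68% of the mono-nucleosome peaks outside the locus. Of the 11 di-nucleosome peaks 7 were shared, or 63.6% (35.4% to 84.8%), beside 15.6%. These intervals cover counting error only and treat as separate the peaks of a group that share their neighbours. Outside the locus, peaks with scores above 100 were shared more often than lower ones. Among such peaks the locus had 5 of 6 mono-nucleosome peaks shared, beside 66.2% of 74 outside it. It had 3 of 4 di-nucleosome peaks shared, beside 89.2% of 37 outside it. So few peaks cannot show whether these shares differ. Among peaks with a score of up to 100, 7 of 10 mono-nucleosome peaks of the locus were shared against 2.27% of 1893 outside it, and 4 of 7 di-nucleosome peaks against 8.42% of 380. The difference between the locus and the rest was thus larger among the peaks of lower score. There all 7 shared mono-nucleosome peaks lay entirely inside a di-nucleosome peak, 3 of them inside the same one. Peaks of a group are not independent, and the difference was not tested. Many peaks outside the locus were alone: 1621 of the 1879 windows of 200 kb with a peak held 1. Grouped overlaps also occurred outside the locus. There a di-nucleosome peak of score 282 overlapped mono-nucleosome peaks of scores 385, 369, 190, 117 and 91.8. Overlap was not counted in the other windows with many peaks, so high overlap is not shown to be particular to the AURKB window.
Among overlapping pairs of the window, the highest mono-nucleosome peak, of score 967, overlapped the highest di-nucleosome peak, of score 168. In some other pairs the order by score differed between the size classes. Ranks were not compared over all pairs. The mono-nucleosome peak of score 812, rank 3, overlapped a di-nucleosome peak of score 84.2, rank 57, whereas those of scores 342 and 75.5, ranks 16 and 205, overlapped di-nucleosome peaks of scores 126 and 123, ranks 26 and 28. The mono-nucleosome peaks without a di-nucleosome partner scored 135, 68.5, 68.3 and 51.2. The di-nucleosome peaks without a mono-nucleosome partner scored 161, 97.0, 73.3 and 61.5, and the first of these was the peak next to the AURKB start. Scores of the lists are not on a common scale where the libraries differ in depth, which is unknown here.

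**Figure D4:**
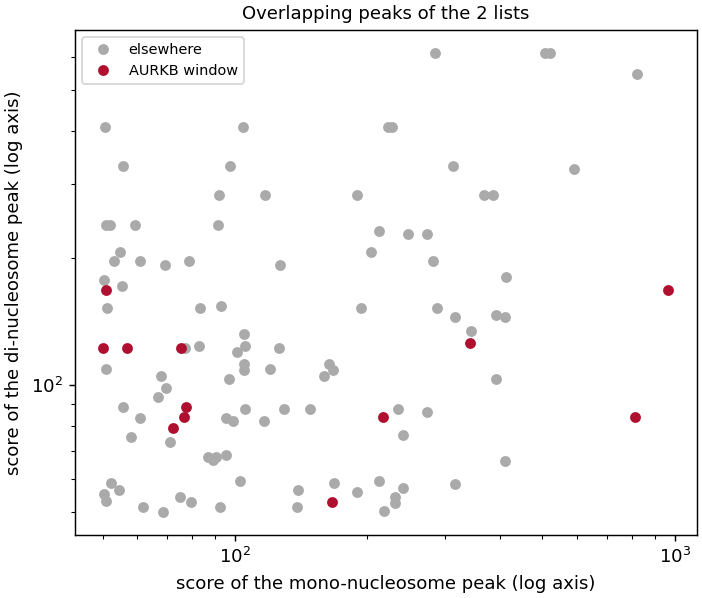
Scores of mono-nucleosome (horizontal, log axis) and di-nucleosome peaks (vertical, log axis) that overlapped by at least 1 bp; each point is a pair, grey outside the AURKB window and red within it. The red points with mono-nucleosome scores of 812 and 967 lie at di-nucleosome scores of 84.2 and 168, below the highest grey points.

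The neighbourhood of AURKB is rich in tRNA genes, which are short and are transcribed by RNA polymerase III. Their order was read from the RefSeq gene table of GRCh38.p14. Since the peaks are in hg19, no position of that table was set against a peak. Within 5 protein-coding genes on each side of AURKB there were 15 tRNA genes, of 33 on chromosome 17 and 443 on chromosomes 1 to 22 and X. At least 15 tRNA genes were found around 59 of 19743 other protein-coding genes, or 0.299%. Of these 59 genes, 33 were on chromosome 6 and 4 on chromosome 17. Genes near each other share tRNA genes, so the 59 are not separate places. Around 94.6% of the other genes there was no tRNA gene.
With genes ordered by their low-position end, the tRNA genes lay in 4 of the intervals between protein-coding genes. Downstream of AURKB, between HES7, a repressor of the somite clock, and PER1, a component of the circadian clock, were TRR-TCT2-1, TRG-GCC2-6, TRS-CGA1-1 and TRT-AGT5-1. Between TMEM107 and BORCS6, the protein-coding neighbour on that side, were TRW-CCA3-3, TRS-GCT4-3, TRT-AGT1-1 and TRI-AAT5-5. No tRNA gene began between BORCS6 and AURKB. Upstream of AURKB, before the low-position end of CTC1, which encodes a subunit of the telomere-binding CST complex, came the long non-coding RNA gene LINC00324 and TRW-CCA1-1, TRG-TCC3-1, TRD-GTC2-11 and TRP-CGG1-3. TRT-AGT1-2, TRS-AGA2-6 and TRI-AAT4-1 followed between the low-position ends of CTC1 and PFAS, an enzyme of purine synthesis. Whether a peak covers a tRNA gene was not tested, since hg19 positions of tRNA genes were not used here, and the part of tRNA genes in these peaks was not tested.

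The AURKB promoter is shown because the closest peak began 625 bp from the start site used here. RefSeq has 2 AURKB start sites with promoter sequence in GRCh38.p14, and they lie 326 and 350 bases inside the outermost end of the gene in that build, so the annotated starts are spread out and the distance of 625 bp holds only for the position used here. The 250 bases before the first of these, at chr17:8210250-8210499 of GRCh38.p14 on the minus strand, are given 5′ to 3′ with the half-sites of a match to the LSF motif in capitals.
AURKB: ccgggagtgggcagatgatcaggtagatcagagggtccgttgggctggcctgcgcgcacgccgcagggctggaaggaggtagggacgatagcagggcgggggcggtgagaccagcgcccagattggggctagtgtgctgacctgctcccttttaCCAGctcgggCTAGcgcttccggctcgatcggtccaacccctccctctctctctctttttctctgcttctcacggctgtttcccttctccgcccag
The motif searched, the LSF paired half-site, has half-sites of C, any base, A or G, and G, with 6 bases between them, on both strands. It matched at 1 place, with its first base 96 bases before the start and the same bases matching on both strands. So loose a motif is common: 60.3% of the 35116 RefSeq promoters, each of 250 bases before to 50 after a start, held a match. With 5 bases between the half-sites, 1 place matched in AURKB, overlapping that shown, and 60% of promoters held a match. The strict form CTGGNNNNNNCTGG was not in the AURKB promoter and was in 4.04% of promoters.
Among the genes of the passenger complex and the other Aurora kinases, INCENP and CDCA8 each held 2 matches to the motif with 6 bases between half-sites and AURKC held 1, and none held the strict form. BIRC5 and AURKA had no entry. Of the genes next to AURKB, BORCS6 held 1 match and LINC00324 held 2, neither with the strict form. CTC1 had no entry. A match describes the letters of the window and not binding, and none of these promoters was set against the peaks.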

How the data were processed

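Per the labels, the submitters' processing notes name CASAVA 1.4, BWA and the build hg19; the roles of these tools are not given there. The peak names are those of MACS, whose version and settings are not given in the sources used here. The authors called peaks on single libraries, HA ChIP over input of induced cells, and deposited the position and score of each peak; the scale of the score is not stated; a lowest value of 50.0 fits a p-value on a scaled −log10 axis, and the score served only to order peaks. The size class of each list was read from its name. Read counts were not used, and the depth per library and the precision it gives are unknown.

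Starts were converted to count from 1. A di-nucleosome row beyond the hg19 length of its chromosome (lengths from GenomeInfoDb 1.38.1) was left out of all counts other than the 429 deposited, which leaves 428. Upstream and downstream refer to the minus strand of AURKB. Overlap meant at least 1 bp. Windows of 200 kb were laid end to end from the first base of each chromosome, a last incomplete window was dropped, and a peak counted in each window it touched. The position of AURKB is approximate. The named genes were AURKB, its nearest protein-coding neighbours on each side, the tRNA genes of the stretch, the subunits of the passenger complex and the other Aurora kinases, and every peak of the window was described; HES7, TMEM107, PER1, PFAS and LINC00324 were named as borders of the intervals with tRNA genes after the order was seen. Overlap, merging and window counts were tested on simulated lists with known answers. Alternatives were a higher score, other distances, overlaps, tilings and motif forms. The members and the lists were chosen with earlier results of these data known, so no test was made on them. Python 3.11.15, numpy 2.4.6, pandas 2.3.3, scipy 1.17.1 and matplotlib 3.10.9 were used.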

Additional observations from a re-analysis of the deposited data

How the results depend on the processing

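Counts of peaks depended on how peaks were delimited. With peaks of a list under 1 kb apart merged, the window held 10 mono-nucleosome and 7 di-nucleosome peaks in place of 16 and 11; with the lower-scoring part of each list, below its median, left out it held 13 and 10. Measured to the AURKB start site in place of the gene, 0 in place of 1 mono-nucleosome peak lay within 5 kb and 2 in place of 4 di-nucleosome peaks within 20 kb, and the same numbers, 0 and 2, were found with the start moved 350 bases into the gene, an alternative chosen after the data were seen. The counts within 50 kb stayed between 10 and 11 and between 6 and 7.

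The share of windows with at least as many peaks as the locus was 0.0132%, or 2 windows, and 2 windows also had as many with the higher score and with merged peaks (the latter chosen after the data were seen). The tiling shifted by 100 kb divides the peaks of the locus into 18 and 9, and 6 windows elsewhere, or 0.0396%, then had at least 18. The gene lies in the part with 9, for which no share was counted. Among windows that held any peak the share was 0.106%, since fewer windows are then counted. Of the di-nucleosome peaks 63.6% were shared, from 45.5% with 50% of the peak covered to 72.7% with peaks within 1 kb. The motif matched at 1 place with either spacing and at 0 in its strict form. The share of genes with as many tRNA genes near them was 0.318% with 3 protein-coding neighbours on each side and 0.523% with 10; the number 5 and both alternatives were picked with the data in view. No paired analysis was possible because no condition was repeated. A place without a peak may have had too few reads, which the lists cannot show.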
